A study of Mus musculus with 4 samples.

Results

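The 59 genes described here drive or mark the mammalian cell cycle, and they were taken by name from 53379 genes measured by RNA-seq in Treg cells of the mouse large intestine (LI). They comprise cyclins, cyclin-dependent kinases (CDKs) and their inhibitors, pocket proteins, E2F and other cell-cycle transcription factors, and genes of DNA replication, deoxynucleotide synthesis and mitosis. The Treg cells were sorted as CD3+CD4+YFP+ cells at steady state from littermate C57BL/6 mice, all of which carried Foxp3-YFPcre, a Cre recombinase that is made with YFP from the *Foxp3* gene and so acts in Treg cells. Control mice had 1 floxed and 1 intact copy of *Setd2* (Setd24flox/+Foxp3-YFPcre in the labels), and KO mice had both copies floxed (Setd24flox/floxFoxp3-YFPcre). *Setd2* encodes the enzyme that trimethylates lysine 36 of histone H3. Each group had 2 libraries, each from a pool of 2 to 3 mice, so each mean has n = 2 pools and the spread within a group is that between pools. Where a pair of values is given for a group below, replicate 1 stands before replicate 2. The mice of the study were 6 to 12 weeks old where no other age was given.

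A dividing cell copies its DNA in S phase and separates the copies in mitosis. D-type cyclins with CDK4 or CDK6 and E-type cyclins with CDK2 phosphorylate the pocket proteins, which releases E2F factors to switch on genes of DNA replication, and CDK inhibitors hold these kinases back. Later in the cycle, cyclin A and cyclin B with CDK1 drive mitosis, and the anaphase-promoting complex (APC/C) ends it by marking mitotic proteins for degradation. Transcripts of many mitotic genes are low in resting cells, in which a repressor complex of a pocket protein, E2F4 and MuvB proteins (DREAM) occupies their promoters, and most Treg cells of an adult tissue rest at any time while a fraction divides.

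In KO LI Treg cells, some genes of chromosomes, mitosis and replication were called higher than in control, led by *Top2a*, *Cdc20* and *Cdk1*. The G1 regulators *Ccnd2* and *Cdkn2c* were called lower. Of the tested genes of replication licensing and the fork, 4 of 11 were called higher, and of kinetochore and spindle 0 of 3. Levels are FPKM (fragments per kilobase of transcript and per total of mapped fragments). A gene is called here where limma gave an unadjusted p below 0.05 on log2(FPKM + 1). The study set the same threshold, but with edgeR according to its methods, so its calls can differ. Of the 59 genes, 43 passed the filter of the study (a mean FPKM above 5 in either group) and were tested among 7639 protein-coding genes. Of these 43, 15 (34.9%) were called higher in KO and 2 (4.65%) lower, and 26 were not called, whereas 8.61% of all genes tested were called higher and 7.57% lower. None of the 43 passed an adjusted p of 0.05 in limma, and the smallest was 0.0612, for *Top2a*, whereas 0.314% of all genes tested passed it as higher and 0.275% as lower. The 15 genes called higher had a mean FPKM in KO that was 1.29 to 2.30 times that in control, and the adjusted p of the 17 called genes reached up to 0.306. With 2 pools per group an exact permutation test of 1 gene cannot give a p below 0.333, so each p rests on the spread that limma pools over the genes tested. When the replicate number was added as a block, 7 of the 43 were called higher and 2 lower, compared with 419 and 377 of all 7639 genes.

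The median log2 fold change (KO relative to control in log2(FPKM + 1), which understates changes of low genes) was 0.22 over the 43 genes and -0.004 over all genes tested. It was positive for 37 of them and negative for 6. Both KO libraries lay above both control libraries for 23 of the 43 (53.5%) and below for 4 (9.30%), compared with 24.2% and 22.9% of all genes tested, and the groups overlapped for 16. *Mki67* and *Aurkb* entered the test only through their KO mean and *Cdkn2c* only through its control mean. Without the filter on low FPKM, 12 of 58 genes (20.7%) were called higher and 2 lower, compared with 6.61% and 4.38% of all genes. Of the 58 genes detected, KO 1 held the highest value for 26 and KO 2 for 23, whereas control 1 held it for 4 and control 2 for 5. The same count was not made over all genes, so it has no background here.

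**Figure D1:**
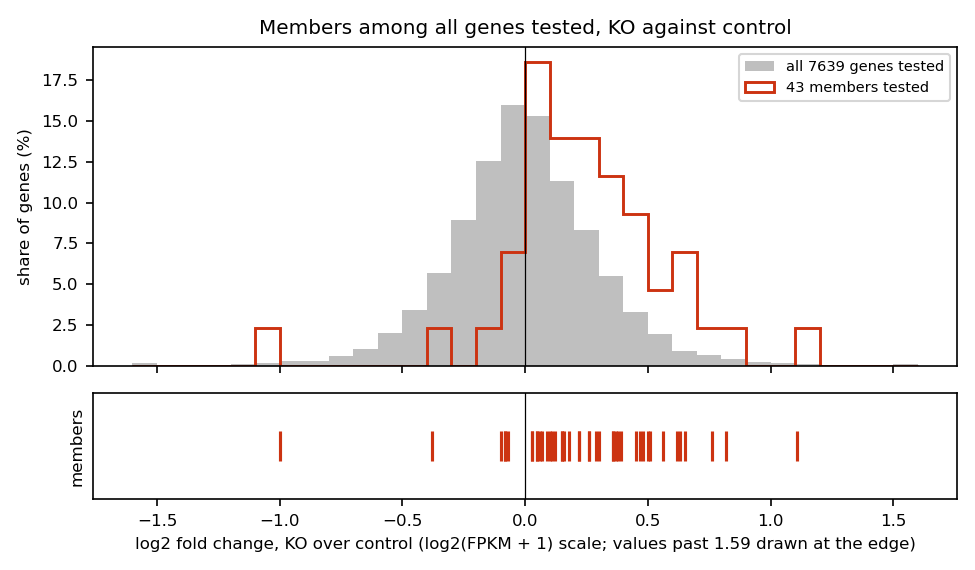
Share of genes (%) by log2 fold change, KO relative to control in log2(FPKM + 1), for all 7639 genes tested (grey) and the 43 cell-cycle genes tested (red outline), with 1 tick per cell-cycle gene in the lower panel. The ticks lie mostly to the right of 0, with a median of 0.22, and *Cdkn2c* and *Ccnd2* lie apart on the left.

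The count of cell-cycle genes called higher was 9 without KO 1, 6 without KO 2 and 10 without either control library. Over all genes it moved in the same fits from 658 to 406 without KO 1, 330 without KO 2, 649 without control 1 and 543 without control 2. *Top2a*, *Cdk1*, *Cdc20*, *Mcm4*, *Rbl2* and *Cdkn2c* were called in each of the 4 fits that left out a library. Each of these fits leaves 1 library in 1 group, which is assumed to vary like those of the other group. The fits kept the genes that passed the filter with all libraries, which *Cdkn2c* passed only through its control mean. All 17 called genes kept the direction of their difference in these fits. This outcome was fixed in advance, because the groups did not overlap in any of them. In bulk RNA a larger share of dividing cells and more RNA per dividing cell cannot be told apart.

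Several results below concern genes that share promoter elements, so their promoters are shown first. RefSeq promoter windows (GRCm38.p6, 250 bases before to 50 after an annotated start) were found for 46 of the 59 genes and for 11 of the 15 called higher. The 13 genes without an entry were *Ccnd1*, *Ccnd2*, *Ccne2*, *Ccna2*, *Rb1*, *E2f4*, *Foxm1*, *Mcm4*, *Gins2*, *Aurkb*, *Kif20a*, *Tpx2* and *Stmn1*. As background, the cell-cycle gene homology region (CHR, searched as TTTGAA) is bound by MuvB complexes such as DREAM, the CCAAT box (searched as CCAAT) by NF-Y, and the E2F element (searched as TTTCCCGC or TTTGGCGC) by E2F factors. Both strands were searched, and no CHR match overlapped another motif. The 150 bases before the start are printed for the 4 mitotic and chromosome genes called higher that held a CHR, with matches to any of these motifs in capitals.
Top2a, chr11:99024190-99024339, minus strand: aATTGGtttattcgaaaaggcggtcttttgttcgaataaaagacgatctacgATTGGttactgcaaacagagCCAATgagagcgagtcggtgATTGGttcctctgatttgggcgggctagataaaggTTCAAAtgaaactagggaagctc
Mki67, chr7:135716380-135716529, minus strand: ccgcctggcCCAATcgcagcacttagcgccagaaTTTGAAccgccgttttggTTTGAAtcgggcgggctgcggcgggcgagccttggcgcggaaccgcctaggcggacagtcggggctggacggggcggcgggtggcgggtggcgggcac
Cdk1, chr10:69352913-69353062, minus strand: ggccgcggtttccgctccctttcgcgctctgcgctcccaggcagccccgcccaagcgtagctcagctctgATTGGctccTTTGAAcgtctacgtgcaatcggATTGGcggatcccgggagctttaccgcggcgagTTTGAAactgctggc
Cdc20, chr4:118437344-118437493, minus strand: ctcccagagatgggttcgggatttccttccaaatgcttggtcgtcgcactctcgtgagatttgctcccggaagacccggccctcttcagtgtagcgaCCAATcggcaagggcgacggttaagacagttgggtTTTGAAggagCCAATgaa

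Positions are those of the first base of a match, counted from the annotated start. Both *Cdk1* and *Top2a* held 2 CHR matches, at -71 and -15 in *Cdk1* and at -179 and -23 in *Top2a*. The distal match of *Top2a* lies outside the printed bases. In *Mki67* the 2 matches lay at -116 and -98, and in *Cdc20* the single match lay at -18. In the GENCODE annotation the last 26 printed bases of *Cdk1*, which hold its match at -15, lie in an exon of *Cdk1*. The last 9 printed bases of *Cdc20* lie in an exon of *Cdc20* and hold no CHR. The replication genes *Mcm5* and *Cdc6*, also called higher, are printed for contrast, since they held an E2F match and no CHR.
Mcm5, chr8:75109359-75109508, plus strand: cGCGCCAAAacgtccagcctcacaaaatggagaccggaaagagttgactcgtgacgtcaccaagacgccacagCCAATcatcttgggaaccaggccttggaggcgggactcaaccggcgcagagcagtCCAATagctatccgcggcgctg
Cdc6, chr11:98908001-98908150, plus strand: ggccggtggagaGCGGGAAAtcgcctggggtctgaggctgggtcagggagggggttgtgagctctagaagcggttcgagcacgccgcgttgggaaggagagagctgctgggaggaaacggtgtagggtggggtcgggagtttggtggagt

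The E2F match of *Mcm5* lay at -149, that of *Cdc6* at -138 and that of *Cdk2* at -140, counted from the RefSeq start. The GENCODE annotation starts *Cdc6* earlier, at chr11:98907801, so its printed stretch lies inside the gene as annotated there. A CHR was found in 13 of 18 genes (72.2%) of the 4 groups of mitosis and chromosomes and in 2 of 13 (15.4%) of replication and deoxynucleotide synthesis, compared with 14.2% of the 6080 tested genes with a window and 20.2% of all 27025 genes with one. The CHR holders of mitosis and chromosomes include *Aurka*, *Bub1b*, *Ccnb2*, *Cenpa*, *Kif11* and *Ube2c*, which were tested and not called. An E2F match was found in 0 of the 18 and in 6 of the 13 (46.2%), compared with 3.90% of tested genes. The CCAAT box, a short and common motif, was found in 88.9% of the former, 69.2% of the latter and 42.9% of tested genes. Among the 11 genes called higher with a window, 5 (45.5%) held a CHR and 3 (27.3%) an E2F match, and over all 46 genes these shares were 39.1% and 21.7%. The fifth gene with a CHR was *Rbl2*, at -201, and *Birc5* held none of the motifs. A match is a description of letters and not evidence of binding.

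**Figure D2:**
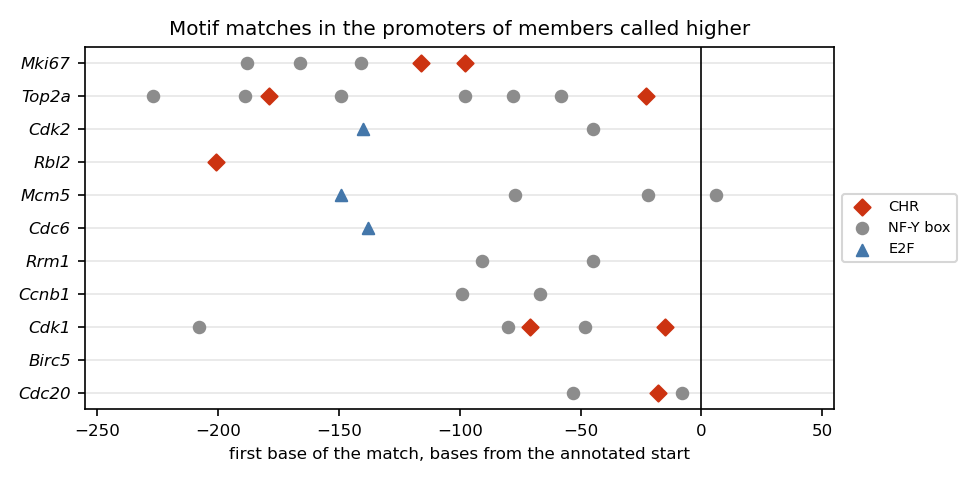
Distance in bases from the annotated start to the first base of each motif match, in the promoter windows of the 11 genes called higher that have one (red diamonds CHR, grey circles CCAAT box, blue triangles E2F). The CHR matches lie in *Mki67*, *Top2a*, *Rbl2*, *Cdk1* and *Cdc20*, and the E2F matches in *Cdk2*, *Mcm5* and *Cdc6*.

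Both general markers of dividing cells were called higher in KO. *Top2a* (ENSMUSG00000020914, chr11:98992943-99024189) encodes topoisomerase II alpha, which untangles chromosomes before they separate. Its FPKM was 19.05 and 19.42 in control, compared with 36.28 and 33.18 in KO, and the groups lay far apart relative to their spread. The log2 fold change was 0.82 with an SE of 0.14 (adjusted p = 0.0612), and the mean was 1.81 times that of control. *Mki67* (ENSMUSG00000031004, chr7:135689784-135716361), which encodes the proliferation antigen Ki-67 on the surface of mitotic chromosomes, had an FPKM of 4.82 and 3.93 in control 1 and 2 and of 7.20 and 7.27 in KO 1 and 2. The KO pools were nearly equal and both above control (log2 fold change 0.62, SE 0.22, adjusted p = 0.230). The call for *Mki67* was lost without control 2 (log2 fold change 0.50), without KO 1 (0.63) and without KO 2 (0.61).

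The G1 kinases and D-type cyclins were not called higher, and 1 of the 4 tested was called lower. *Ccnd2*, the D-type cyclin with the highest level by far, had an FPKM of 398.75 and 417.78 in control and of 303.66 and 323.38 in KO. Both KO pools lay below both control pools, with a mean in control 1.30 times that in KO (log2 fold change -0.38, SE 0.11, adjusted p = 0.162), although the call was lost without KO 1 (log2 fold change -0.34). *Ccnd3* was 40.73 and 50.97 in control but 58.91 in KO 1 and 31.58 in KO 2, so the KO pools lay on either side of control (adjusted p = 0.932). Its log2 fold change of -0.08 (SE 0.27) ranged from -0.52 to 0.36 when a library was left out. *Cdk4*, the G1 kinase with the higher level, was 43.67 and 42.05 in control and 40.12 and 41.38 in KO (log2 fold change -0.07, SE 0.12, adjusted p = 0.831). *Cdk6* was 16.11 and 16.62 in control and 19.07 and 20.42 in KO, without overlap but not called (log2 fold change 0.26, adjusted p = 0.438). *Ccnd1* was near 0, from 0.35 to 0.57 in the 4 libraries. The summed FPKM of these 5 genes, most of it *Ccnd2*, was 499.83 and 527.77 in control and 422.29 and 417.22 in KO.

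An overlapping neighbour of *Cdk4* was lower in KO. *Tspan31*, a tetraspanin gene on the other strand that covers 19.7% of the exon bases of *Cdk4*, had an FPKM of 67.44 and 67.05 in control and 24.20 and 27.08 in KO (log2 fold change -1.36, SE 0.13, adjusted p = 0.0101). The sources used here do not say whether strand was kept, so reads in the shared bases cannot be assigned to 1 of the 2 genes. *Cdk4* itself differed by less than its SE.

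**Figure D3:**
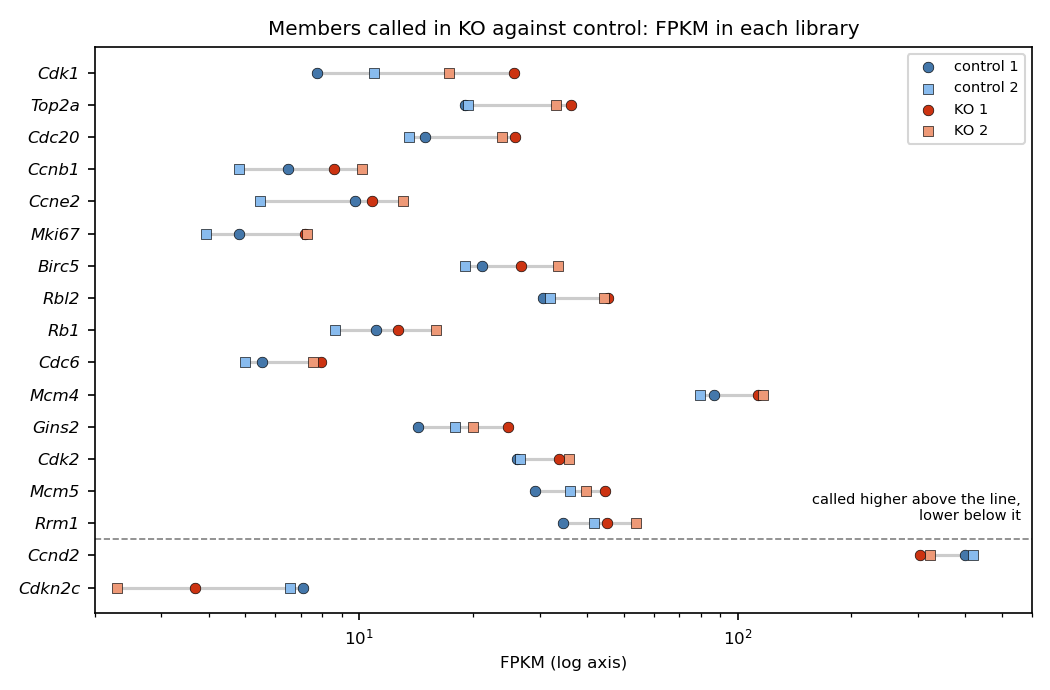
FPKM (log axis) in each of the 4 libraries for the 17 genes called in KO against control, with a grey line over the range of each gene. The red KO points lie to the right of the blue control points for the 15 genes above the dashed line, and to the left for *Ccnd2* and *Cdkn2c*, with no overlap in any of the 17.

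E-type cyclins and CDK2, which act at entry into S phase, were higher in both KO pools for all 3 genes, and both tested genes were called. *Cdk2* was 26.09 and 26.67 in control and 33.80 and 35.82 in KO (log2 fold change 0.39, SE 0.13, adjusted p = 0.222). *Ccne2* was 9.74 in control 1 but 5.47 in control 2, and 10.81 and 13.03 in KO 1 and 2, so that control 1 lay close to KO 1 (log2 fold change 0.63, SE 0.27, adjusted p = 0.306). *Ccne1* was below the filter, at 3.96 and 3.58 in control and 4.85 and 4.87 in KO. Both calls were lost without KO 1 (log2 fold change 0.43 for *Cdk2* and 0.75 for *Ccne2*) and without KO 2 (0.35 and 0.50). The call of *Cdk2* was also lost without control 1 (log2 fold change 0.37) and that of *Ccne2* without control 2 (0.26). *Ints8* on the other strand covers 17.4% of the exon bases of *Ccne2* and lay between 6.77 and 7.25 in the 4 libraries.

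Among the CDK inhibitors only *Cdkn2c* was called. This gene (ENSMUSG00000028551, chr4:109660876-109667189) encodes p18INK4c, an inhibitor of CDK4 and CDK6, and its FPKM was 7.09 and 6.56 in control and 3.68 and 2.29 in KO. The mean in control was 2.29 times that in KO, both KO pools lay below control, and the log2 fold change was -1.0 (SE 0.26, adjusted p = 0.143). *Cdkn1b*, which encodes p27, the inhibitor that holds resting T cells out of the cycle, was 85.97 and 81.33 in control and 88.34 and 84.66 in KO, and the groups overlapped (log2 fold change 0.05, SE 0.11, adjusted p = 0.885). *Cdkn2d* was 63.80 and 65.76 in control and 63.46 and 57.44 in KO (log2 fold change -0.10, adjusted p = 0.742). *Cdkn2a* was listed at 0 in all 4 libraries. Thus the inhibitor transcripts with the highest levels, *Cdkn1b* and *Cdkn2d*, differed by less than their SE.

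All 3 pocket proteins were higher in both KO pools, and 2 were called. *Rbl2* (ENSMUSG00000031666, chr8:91070057-91123844) encodes p130, the pocket protein of resting cells, and its FPKM was 30.64 and 32.00 in control and 45.51 and 44.31 in KO. The pools of each group were close together, and the mean in KO was 1.43 times that in control (log2 fold change 0.51, SE 0.12, adjusted p = 0.125). *Rb1* was 11.08 and 8.66 in control and 12.67 and 16 in KO (log2 fold change 0.50, SE 0.20, adjusted p = 0.288). The call for *Rb1* was lost without KO 2 or without control 2 (log2 fold change 0.34 in each), and *Rcbtb2*, which covers 8.10% of its exon bases on the other strand, was 16.66 and 17.92 in control and 35.61 and 29.56 in KO (adjusted p = 0.0694). *Aktip*, which covers 9.20% of the exon bases of *Rbl2* on the other strand, was 15.33 and 13.35 in control and 18.75 and 19.56 in KO. The part of these neighbours in the values of *Rb1* and *Rbl2* was not tested. *Rbl1*, which encodes p107, was 11.47 and 11.78 in control and 16.19 and 14.37 in KO, without overlap but not called (log2 fold change 0.36, SE 0.16, adjusted p = 0.327).

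Of the 6 cell-cycle transcription factors, 5 were below the filter. Only *E2f4*, a repressor E2F of resting cells, passed the filter, with an FPKM of 25.79 and 24.58 in control and 24.01 and 28.31 in KO, so the groups overlapped (log2 fold change 0.05, SE 0.15, adjusted p = 0.917). Its direction turned without KO 2 (log2 fold change -0.07). Of the activator E2Fs, *E2f1* was 0.56 and 0.73 in control and 0.81 and 1.38 in KO, *E2f2* lay between 0.81 and 1.57, and *E2f3* was 1.70 and 1.73 in control and 1.46 and 1.29 in KO. *Mybl2*, which encodes the B-MYB protein of late S phase, was 0.97 and 1.2 in control and 1.95 and 1.87 in KO, and *Foxm1*, a factor of mitotic genes, was 1.57, 0.88, 1.01 and 0.42 in control 1, control 2, KO 1 and KO 2. With a mean FPKM of at least 1 as the filter these 5 genes were tested and none was called, with log2 fold changes of 0.34 for *E2f1* (SE 0.29), 0.35 for *E2f2* (SE 0.27), -0.19 for *E2f3* (SE 0.25), 0.48 for *Mybl2* (SE 0.26) and -0.38 for *Foxm1* (SE 0.32).

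**Figure D4:**
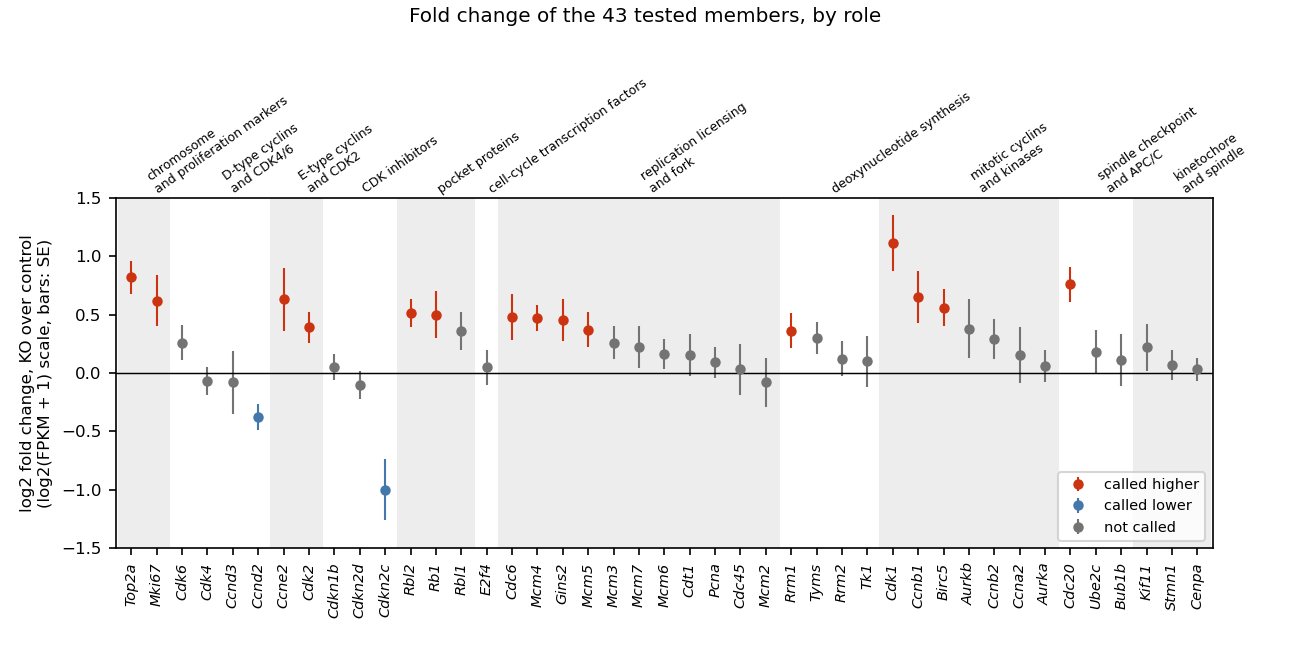
Log2 fold change, KO relative to control in log2(FPKM + 1), with its SE as a bar, for the 43 genes tested, grouped by role and coloured by call (red higher, blue lower, grey not called). The calls higher lie in 7 of the 11 roles, and the 2 calls lower are *Ccnd2* and *Cdkn2c*.

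All 11 genes of replication licensing and the replication fork were tested, and 4 were called higher and none lower. *Mcm4* (ENSMUSG00000022673, chr16:15623897-15637400) encodes a subunit of the MCM helicase that is loaded at origins, and its FPKM was 86.44 and 79.37 in control and 112.98 and 116.69 in KO. The groups were well separated, with a ratio of 1.39 (log2 fold change 0.47, SE 0.11, adjusted p = 0.120). *Mcm5*, another subunit, was 29.19 and 36.02 in control and 44.64 and 39.70 in KO (log2 fold change 0.37, SE 0.15, adjusted p = 0.30). *Cdc6*, a loader of the helicase, was 5.53 and 4.99 in control and 7.91 and 7.57 in KO (log2 fold change 0.48, SE 0.20, adjusted p = 0.301). *Gins2*, a subunit of the active helicase, was 14.35 and 17.92 in control and 24.81 and 20.05 in KO (log2 fold change 0.45, SE 0.18, adjusted p = 0.284). Each of these 4 genes was higher in both KO pools, but of their calls only that of *Mcm4* held in each fit without 1 library. The calls of *Mcm5*, *Cdc6* and *Gins2* were lost without KO 1 (log2 fold changes 0.28, 0.45 and 0.30) and without control 1 (0.22, 0.54 and 0.30). Those of *Mcm5* and *Cdc6* were lost without KO 2 (0.45 and 0.51), and that of *Cdc6* without control 2 (0.42).

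None of the other subunits of the MCM ring was called. *Mcm3* was 49.64 and 46.98 in control and 64.90 and 51.84 in KO (log2 fold change 0.26, adjusted p = 0.426), and *Mcm6*, the highest of the ring in control, was 99.61 and 118.11 in control and 124.77 and 118.26 in KO (log2 fold change 0.16, adjusted p = 0.576). *Mcm7* was 25.93 and 30.37 in control and 38.02 and 28.48 in KO, and *Mcm2* was 16.39 and 19.77 in control and 20.71 and 13.83 in KO. In both, KO 1 was the highest library and KO 2 lay within or below the control values. *Pcna*, the sliding clamp of the fork, was 293.43 and 242.25 in control and 271.83 and 296.24 in KO, and the groups overlapped (log2 fold change 0.09, SE 0.13, adjusted p = 0.790). Its log2 fold change was -0.05 without control 2. *Cdt1* and *Cdc45* also overlapped between the groups. The summed FPKM of the 11 genes was 640.57 and 614.92 in control and 733.03 and 713.14 in KO.

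Of the 4 genes of deoxynucleotide synthesis, *Rrm1* was called higher. It encodes the large subunit of ribonucleotide reductase, and its FPKM was 34.58 and 41.87 in control and 45.17 and 53.75 in KO (log2 fold change 0.36, SE 0.15, adjusted p = 0.303). The call was lost without KO 2 (log2 fold change 0.24) or control 1 (0.23). The small subunit *Rrm2* was 25.71 and 21.53 in control and 24.88 and 26.60 in KO, with overlap (log2 fold change 0.12). *Tyms*, thymidylate synthase, was 30.06 and 26.44 in control and 33.84 and 36.06 in KO, without overlap (log2 fold change 0.30, SE 0.14, adjusted p = 0.342), and *Tk1*, thymidine kinase, was 9.82 and 13.33 in control and 14.45 and 10.49 in KO.

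Genes of mitotic entry included the gene with the highest fold change. *Cdk1* (ENSMUSG00000019942, chr10:69335146-69352938), the kinase of mitosis, had an FPKM of 7.73 and 10.92 in control and of 25.73 and 17.24 in KO. The KO pools differed from each other by more than the control pools did, yet both lay well above control, with a ratio of 2.30 (log2 fold change 1.11, SE 0.24, adjusted p = 0.0945). *Ccnb1*, cyclin B1 and a partner of CDK1, was 6.48 and 4.81 in control and 8.58 and 10.17 in KO (log2 fold change 0.65, SE 0.22, adjusted p = 0.222). *Birc5*, which encodes survivin of the chromosomal passenger complex, was 21.12 and 19.09 in control and 26.79 and 33.56 in KO (log2 fold change 0.56, SE 0.16, adjusted p = 0.177). Without KO 2 the calls of *Ccnb1* (log2 fold change 0.54) and *Birc5* (0.40) were lost, and without control 2 that of *Ccnb1* (0.47). *Ccnb2* was 9.85 and 9.65 in control and 12.27 and 12.09 in KO, tight within each group but not called (log2 fold change 0.29, adjusted p = 0.433). *Aurkb*, the kinase of the passenger complex, was 3.41 and 5.15 in control and 5.59 and 5.97 in KO (log2 fold change 0.38, adjusted p = 0.501). The groups overlapped for *Ccna2*, cyclin A2, at 4.16 and 5.89 in control and 5.46 and 5.79 in KO, for *Aurka*, which lay between 20.26 and 22.86, and for *Plk1*, a mitotic kinase that was 5.00, 4.29, 5.08 and 3.38 in control 1, control 2, KO 1 and KO 2. The summed FPKM of the 8 genes was 80.36 and 80.06 in control and 112.36 and 110.04 in KO.

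Of the 3 spindle checkpoint and APC/C genes tested, 1 was called higher and none lower. *Cdc20* (ENSMUSG00000006398, chr4:118432901-118437352), which activates the APC/C, had an FPKM of 14.92 and 13.54 in control and 25.76 and 23.79 in KO. The groups did not overlap and the ratio was 1.74 (log2 fold change 0.76, SE 0.15, adjusted p = 0.0821). *Ube2c*, an ubiquitin-conjugating enzyme of the APC/C, was 7.66 and 6.73 in control and 8.41 and 8.07 in KO (log2 fold change 0.18, adjusted p = 0.710). The checkpoint kinase gene *Bub1b* was 5.09 and 5.30 in control and 6.28 and 5.15 in KO. Of the untested checkpoint genes, *Bub1* was 1.55 and 1.35 in control and 1.85 and 2.30 in KO, and *Ttk* lay between 0.67 and 0.82.

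None of the 3 tested kinetochore and spindle genes was called. *Cenpa*, the histone of centromeres, was the highest of them at 191.10 and 198.19 in control and 196.91 and 200.18 in KO (log2 fold change 0.03, SE 0.10, adjusted p = 0.933), and the groups overlapped. *Stmn1*, a regulator of microtubules, was 80.50 and 98.68 in control and 94.92 and 92.83 in KO, and the spindle motor gene *Kif11* was 7.95 and 7.0 in control and 7.94 and 9.82 in KO (log2 fold change 0.22, adjusted p = 0.642). Below the filter, both KO pools lay above both control pools for *Nusap1* (2.53 and 2.5 in control, 4.07 and 4.13 in KO), *Kif20a* (2.64 and 2.08, 4.18 and 3.36), *Cenpe* (1.06 and 0.92, 1.62 and 1.58) and *Cenpf* (0.71 and 0.25, 0.78 and 1.17). For *Tpx2* the groups overlapped, at 3.05 and 2.69 in control and 4.12 and 2.79 in KO. *Nusap1* was called higher when the filter was a mean FPKM of at least 1 (log2 fold change 0.54, SE 0.22, adjusted p = 0.318), which gave 16 calls higher of 55 cell-cycle genes tested (29.1%), compared with 7.94% of all genes, but not without a filter.

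**Figure D5:**
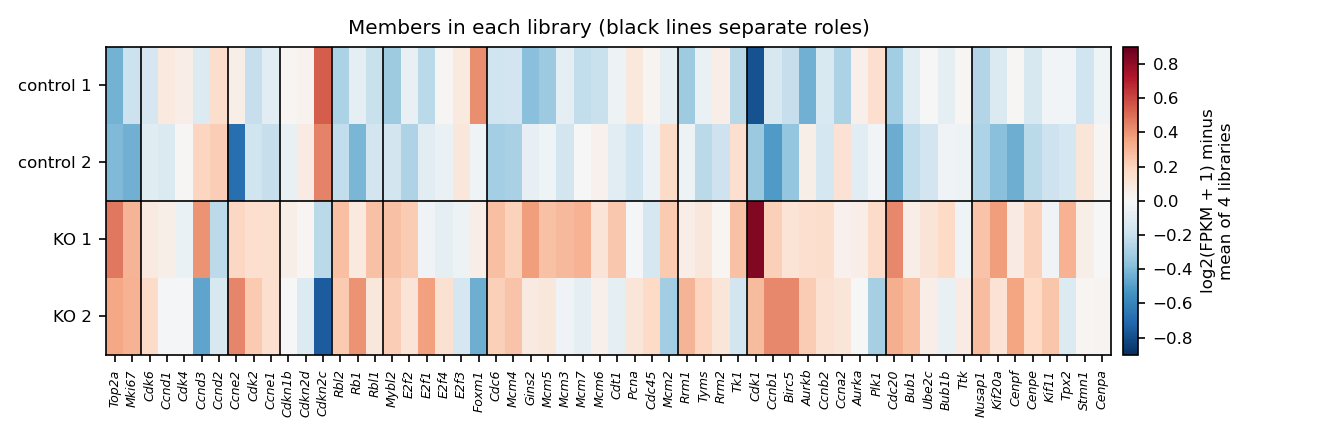
Heat map of log2(FPKM + 1) minus the mean of the 4 libraries for the 58 genes detected (columns, by role, black lines between roles) in each library (rows). Red marks values above the mean and blue values below it, and the KO rows are mostly red in the mitotic and replication roles, with *Cdkn2c* and *Ccnd2* reversed.

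A further 108 genes of the same pathways were read from the same fit, of which 74 were tested. The list was chosen with earlier results of these data known, so its shares are a description and not independent support. Of these 74, 14 (18.9%) were called higher and 2 (2.70%) lower, compared with 8.61% and 7.57% of all genes tested. None of the 74 passed an adjusted p of 0.05 in limma, with the smallest at 0.117. Of the 74, 2 entered the test only through their KO mean, among them *Ncapg*, which was called higher, and 5 only through their control mean, among them *E2f5*, which was called lower. With a mean FPKM above 5 over all 4 libraries as the filter, 13 of 71 were called higher and 1 lower, compared with 623 and 538 of all 7376 genes. The median log2 fold change was 0.06 over the 74 and -0.004 over all genes tested. That of the further genes was 0.12 under that filter, 0.16 with a mean of at least 1 and 0.15 without a filter. With 1 library left out it ranged from 0.04 to 0.17, and the count of calls higher was 8 without control 2 or KO 1 and 7 without KO 2. Most calls higher were in chromosome structure, kinetochore and cytokinesis (6 of 15 tested, median log2 fold change 0.33) and in mitotic entry and exit (5 of 14). Origin recognition and replication had 2 of 23, and a mixed list of other cyclin, CDK and G1 genes had 1 of 13, the call of *Cdk5*. Both of these shares lay near the 8.61% of all genes tested that were called higher.

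*Ndc80*, a kinetochore protein that binds microtubules, was 9.87 and 8.36 in control and 14.82 and 17.53 in KO (log2 fold change 0.76, adjusted p = 0.117). *Cdca8*, which encodes borealin, a partner of survivin, was 13.39 and 11.70 in control and 19.05 and 19.84 in KO (log2 fold change 0.60, adjusted p = 0.144). *Smc2*, a subunit of condensin, was 10.58 and 12.34 in control and 17.94 and 17.44 in KO (log2 fold change 0.59, adjusted p = 0.162). These 3 genes did not overlap between the groups, nor did *Prim1*, the DNA primase that starts new strands, at 18.32 and 17.84 in control and 25.59 and 25.99 in KO (log2 fold change 0.49, adjusted p = 0.168). The other calls higher were *Ncapg*, *Spc24*, *Prc1* and *Tacc3* of chromosomes and the spindle, *Cdca3*, *Cdca5*, *Mad2l1* and *Bub3* of mitotic entry and exit, *Gmnn*, which encodes the licensing inhibitor geminin, and *Cdk5*, with log2 fold changes from 0.32 to 0.65. Both calls lower were among 9 tested E2F and MuvB (DREAM) factors. *Lin52*, a subunit of the MuvB core, was 15.52 and 19.81 in control and 12.09 and 11.62 in KO (log2 fold change -0.53, adjusted p = 0.222), and *E2f5*, a repressor E2F, was 5.71 and 5.37 in control and 2.99 and 3.74 in KO (log2 fold change -0.59, adjusted p = 0.287).

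Genes similar in sequence to called genes were looked for in the annotation. Those similar to *Ccnb1*, *Cdc20* and *Mcm4* were listed at no more than 0.33, 0.13 and 0.78 FPKM in any library. The largest overlap on the other strand was that of *Gse1* with *Gins2*, which covers 67.3% of its exon bases and lay between 1.95 and 2.28 FPKM. *Elovl1* covers 2.80% of the exon bases of *Cdc20* and was 132.55 and 122.98 in control and 143.54 and 152.52 in KO. The part of *Elovl1* in the values of *Cdc20* was not tested.

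Over all genes, the 4 columns followed a common distribution and the depth of each library is unknown, so a change in total mRNA per cell cannot be seen. Control 2 listed 28426 genes at 0 and the other libraries between 33223 and 33957. Over the genes tested, the Pearson r of log2(FPKM + 1) was 0.982 between the control libraries, 0.985 between the KO libraries and 0.967 to 0.977 between groups. *Setd2* itself was 38.19 and 27.36 in control and 26.33 and 36.30 in KO (log2 fold change -0.06, adjusted p = 0.927), a sum over all exons that does not check the deletion. Of the 7 T cell and Treg markers, *Cd3e* (148.95 to 186.61), *Cd4* (130.75 to 220.38) and *Foxp3* (2.62 to 5.61, a low level) overlapped between the groups. *Ctla4* was 1593.26 and 1700.67 in control and 2159.97 and 2310.35 in KO and was called higher (log2 fold change 0.44, adjusted p = 0.132), and *Ikzf2* was 120.75 and 115.57 in control and 84.12 and 98.36 in KO and was called lower (log2 fold change -0.37, adjusted p = 0.222). *Cd3d* lay above control in both KO pools (log2 fold change 0.21) and *Il2ra* below it (log2 fold change -0.21), and neither was called. Among markers of other cells, the summed level of 6 myeloid genes was 220.83 and 197.90 in control and 211.25 and 245.93 in KO, with 3 of the 6 above control in both KO pools and *Lyz2* at 127.83 to 167.97, and that of 4 plasma cell genes was 123.20 and 165.69 in control and 120.38 and 174.00 in KO, with 1 of the 4 above. The sum of 7 stromal, endothelial and red cell genes, mostly *Pecam1*, was 51.43 and 38.88 in control and 72.18 and 50.71 in KO. Of these 7, 1 lay above control in both KO pools and 1 below, and *Pecam1* was called higher (log2 fold change 0.36, adjusted p = 0.252). The 6 epithelial genes, mostly *Epcam*, summed to 28.96 and 30.91 in control and 20.44 and 21.38 in KO, with 1 of the 6 above and 1 below. *Epcam* was called lower (log2 fold change -0.53, adjusted p = 0.147), and *Krt8*, *Krt20* and *Muc2* lay at 0 to 0.14. The 4 B cell genes summed to 12.10 to 16.16, the 2 CD8 genes to 2.22 to 2.96 and the 3 genes of NK and innate lymphoid cells to 0.27 to 0.65, with none of these above control in both KO pools. The part of these markers and cells in the differences above was not tested.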

How the data were processed

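RNA-seq of 4 libraries of LI Treg cells (2 control, 2 KO) was used. The authors sequenced poly(A) RNA in paired reads of 150 bp, aligned them by STAR v2.5 (GRCm38) and estimated gene levels by RSEM v1.2 on GENCODE M16. They deposited FPKM, whose common distribution in the 4 columns is that of quantile normalization, a step the sources used here do not state. The columns keep no depth, so no counting interval was computed. Annotation was a later GENCODE release of GRCm38, which held 53274 of 53379 gene identifiers.

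KO was compared with control on log2(FPKM + 1) in limma 3.58.1 (R 4.3.3), two-sided, without covariate and with a trend in the empirical Bayes step. The 7639 genes tested were protein-coding and exceeded a mean FPKM of 5 in at least 1 group, and Benjamini-Hochberg adjustment ran over all of them. The labels do not say which pools were collected together.

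The members and lists were chosen with earlier results of these data known. All members could be named. Full statistics were given for those with an unadjusted p below 0.05, for *Mki67*, *Top2a*, *Cdk4*, *Cdkn1b* and *Pcna*, and for the highest of each role. Of the further list, genes called without overlap were named, and of other genes those that overlap or resemble a named member. Promoter sequences were from RefSeq (GRCm38.p6), similarity was from BLAST 2.17.0, and tables and figures used Python 3.11.15 with pandas 2.3.3, numpy 2.4.6 and matplotlib 3.10.9.

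Alternatives were pseudocounts of 0.1 and 5, a lower filter (mean FPKM of 1 or more) or none, all gene types, median-centred libraries, no trend, the replicate number as a block and each library left out. A crossed block and a mean above 5 over all 4 libraries were added after seeing the data.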

Additional observations from a re-analysis of the deposited data

How the results depend on the processing

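All 17 called genes kept their direction under every alternative that tested them. Apart from median-centring, none of these alternatives could have turned it. Filters, gene types, trend and blocks leave the fold change as it is. Pseudocounts and leaving out a library cannot reverse groups that do not overlap. With pseudocounts of 0.1 and 5, a mean FPKM of at least 1 and the crossed block all 17 stayed called, and 15 did with median-centred libraries, 14 without trend, 13 with all gene types, 12 without a filter and 9 with the replicate block. Same-numbered libraries did not deviate together from their group means (r = -0.305). With 2 libraries per group this r only ranks the possible pairings, so it cannot decide whether the numbers pair the samples. With the replicate number as a block, the calls higher were 7 for the 43 members, 8 for the 74 other cell-cycle genes (1 lower) and 419 of all genes (377 lower), with 15 and 12 at an adjusted p. A crossed pairing, added after seeing the data, gave 1008 higher and 983 lower, 239 and 225 at an adjusted p, with 6 members and 3 other cell-cycle genes among the 239.

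Leaving out 1 library gave 6 to 10 members and 7 to 12 other cell-cycle genes called higher, 1 to 2 others called lower, a member median of 0.20 to 0.30, 330 to 649 of all genes higher and 313 to 600 lower, and 1 to 36 and 1 to 30 at an adjusted p. The log2 fold change of E2f4 lay between -0.07 (without KO 2) and 0.16, and that of Pcna between -0.05 (without control 2) and 0.23. Without a filter, 1170 of all genes were called higher, 0 passed an adjusted p in either direction in limma, 1 other cell-cycle gene was lower and the member median was 0.26, as with a mean of at least 1, where 11 genes were lower at an adjusted p. With all gene types 5 and 8 passed an adjusted p, with 1 other cell-cycle gene lower, and without trend 1 and 2. With a mean above 5 over all libraries 1 member and 1 other gene were lower, since fewer genes were tested. The cause of the other shifts was not tested. Depth is unknown, and 16 members were below the filter of the study, of which 12 were tested with a mean of at least 1.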
